A study of Mus musculus with 15 samples.

Results

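Toll-like receptors are membrane proteins with which innate immune cells recognize molecules of microbes. The 10 genes described here were chosen by name and are Tlr1 to Tlr9 together with Cd14, out of 54532 genes in the count table of each tissue. Total RNA of liver and lung was sequenced from wild type C57BL/6J mice, an inbred laboratory strain, with 1 library per mouse and tissue. One group ate a control diet (CS) and the other the diet with 2% phytosterols (PS), plant sterols that resemble cholesterol. The livers came from 4 CS and 5 PS mice and the lungs from 3 CS and 3 PS mice, and 6 of the 9 mice gave both tissues. The labels give all mice an age of 28 weeks, while the times in the study's methods add up to more. The tissues are bulk samples, in which fewer cells of a type and less RNA per cell cannot be told apart.

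As background, Toll-like receptors work in 2 places. TLR1, TLR2, TLR4, TLR5 and TLR6 sit on the cell surface, where TLR2 pairs with TLR1 or TLR6 to bind bacterial lipoproteins, TLR4 binds lipopolysaccharide handed over by CD14, and TLR5 binds flagellin. TLR3, TLR7, TLR8 and TLR9 sit in endosomes and bind nucleic acids, TLR3 double-stranded RNA, TLR7 and TLR8 single-stranded RNA, and TLR9 unmethylated CpG DNA. Except for TLR3, which uses the adaptor TRIF, they signal through the adaptor MyD88 to NF-kappa B, and TLR4 uses both adaptors. In the liver they are known from Kupffer cells, the resident macrophages, and in the lung from alveolar macrophages, other leukocytes and the epithelium.

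The total count per library ranged from 14410117 to 17625179 in the liver and from 17934930 to 19396057 in the lung. Markers of hepatocytes summed to at least 77190 CPM (counts scaled to a common library size) in each liver and at most 129 CPM in each lung, and markers of lung epithelium to at least 61918 CPM in each lung and at most 6.13 CPM in each liver, as labelled. None of the 22 pairs of libraries from the same tissue and diet agreed within counting noise, and the liver of CS replicate 2 stood farthest from the other livers of its diet.

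Besides Cd14, the genes lie on 7 chromosomes, with Tlr9 on chromosome 9 (ENSMUSG00000045322, 106222598 to 106226883, plus strand) and Tlr8 on chromosome X (ENSMUSG00000040522, 167242696 to 167264329, minus strand), on build GRCm38. Tlr7 lies on chromosome X from 167304929 to 167330558, and Tlr1 and Tlr6 lie on chromosome 5. The transcripts of Tlr1 and Tlr6 are 94.9% identical over 1076 bases, so reads could be split between them and both values are uncertain. Tlr3 shares 381 exon bases with Gm45542 on the other strand. Whether counting used strand is not given in the sources used here, so reads of this pair cannot be told apart.

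The promoters of Tlr9 and Tlr8, the 2 genes that fell in the lung, are shown from 250 bases before to 50 bases after the start site, 5′ to 3′ on the gene's strand. They are RefSeq sequences of GRCm38.p6, at chr9:106222348-106222647 on the plus strand and chrX:167264280-167264579 on the minus strand. Capitals mark matches to 5 searched motifs.
Tlr9: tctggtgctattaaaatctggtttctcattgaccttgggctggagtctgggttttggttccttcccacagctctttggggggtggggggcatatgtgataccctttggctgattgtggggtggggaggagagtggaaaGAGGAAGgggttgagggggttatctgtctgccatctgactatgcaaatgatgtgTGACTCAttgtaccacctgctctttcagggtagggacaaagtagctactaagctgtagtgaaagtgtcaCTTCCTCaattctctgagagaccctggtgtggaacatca
Tlr8: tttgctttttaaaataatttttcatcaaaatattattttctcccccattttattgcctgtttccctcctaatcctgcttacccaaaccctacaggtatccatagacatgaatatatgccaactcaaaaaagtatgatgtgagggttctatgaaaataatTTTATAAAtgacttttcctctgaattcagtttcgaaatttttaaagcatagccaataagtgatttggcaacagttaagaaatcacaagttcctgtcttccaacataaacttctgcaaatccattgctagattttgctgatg
The motifs were searched on both strands, and 7 of the 10 genes had a promoter entry, the others being Tlr4, Tlr7 and Cd14. In Tlr9 the capitals are the core of PU.1, a myeloid and B cell factor, spelled GAGGAAG, at -112 and on the other strand at 11 from the start site, and that of AP-1, spelled TGANTCA, at -58. In Tlr8 they are the letters TATAAA, at -89 and on the other strand at -91, which overlap each other. GAGGAAG stood in 13.6% of all 32851 promoters, TGANTCA in 7.81% and TATAAA in 13.6%. Among the genes described here, GAGGAAG was also found in Tlr1 and TATAAA in Tlr6. The other 2 motifs, of NF-kappa B (1.47% of promoters) and the interferon-stimulated response element (3.44%), were found in Tlr3 and in Tlr6. These matches describe letters in a window.

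In the lung, the 2 endosomal receptors Tlr9 and Tlr8 fell on the PS diet. Tlr9 had 35, 29 and 29 counts in the 3 CS lungs and 0, 1 and 4 in the 3 PS lungs, or 1.77, 1.49 and 1.57 against 0, 0.0558 and 0.221 CPM. All PS lungs lay below all CS lungs. The log2 fold change of Tlr9 was -4.01 (SE 0.70, edgeR quasi-likelihood test, Benjamini-Hochberg adjusted p = 0.0217 over 16717 genes, n = 3 against 3). The summed counts, 5 on the PS diet and 93 on the CS diet, scaled by depth, gave a ratio of 0.0555 with an exact 95% interval from 0.0176 to 0.134, which covers counting error only.

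Tlr8 had 45, 31 and 36 counts in the CS lungs and 9, 9 and 12 in the PS lungs, or 2.27, 1.59 and 1.95 against 0.533, 0.502 and 0.662 CPM. The groups did not overlap. Tlr8 fell by 1.77 on the log2 scale (SE 0.38, edgeR adjusted p = 0.0329), and its summed counts of 30 and 112 gave a ratio of 0.276, with an exact 95% interval from 0.178 to 0.417 for counting error. Tlr7, its neighbor on chromosome X, had 6.57, 4.73 and 3.75 CPM in the CS lungs and 6.51, 5.36 and 4.25 CPM in the PS lungs. Its groups overlapped, with a log2 fold change of 0.10 (SE 0.30, edgeR adjusted p = 0.855). Whether the diet difference of Tlr8 differs from that of Tlr7 was not tested.

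**Figure D1:**
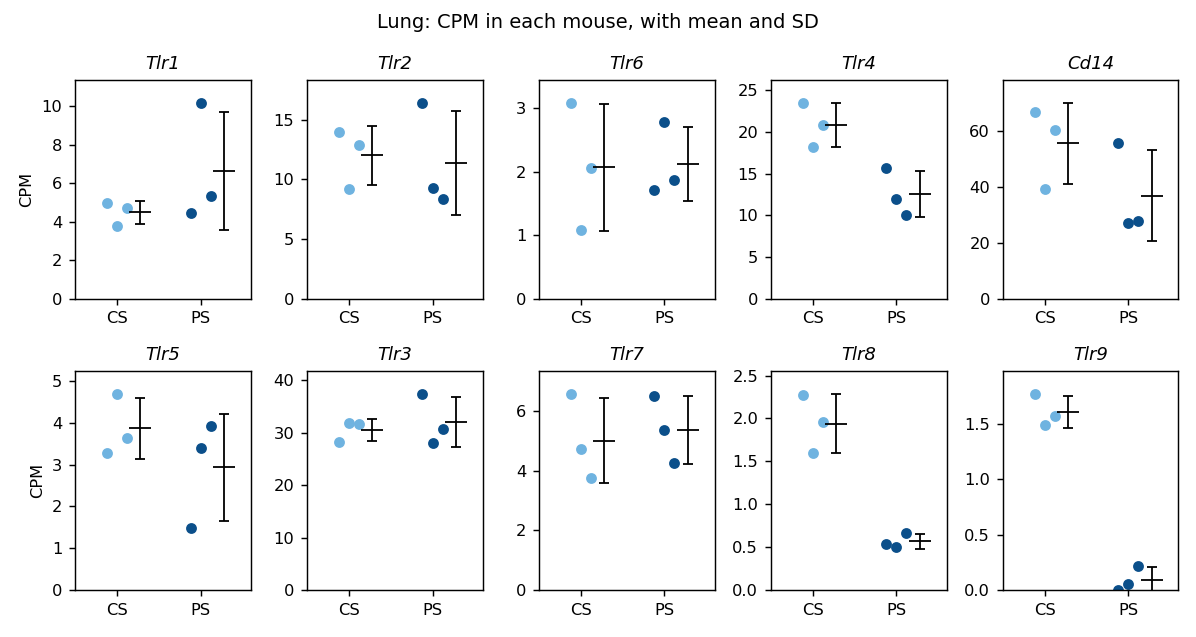
CPM of each gene (vertical axis, starting at 0, own scale in each panel) in the 3 CS and 3 PS lungs, 1 point per mouse, with the mean and SD (drawn down to 0 at most) beside the points. The PS points of Tlr4, Tlr8 and Tlr9 lie below all CS points, and those of the other 7 genes overlap.

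Tlr4 had 464, 353 and 383 counts in the CS lungs and 264, 214 and 183 in the PS lungs, or 23.5, 18.1 and 20.8 against 15.6, 11.9 and 10.1 CPM. The groups did not overlap, but the log2 fold change of -0.73 (SE 0.21) did not pass the adjustment (edgeR adjusted p = 0.0582). It passed in DESeq2's Wald test (adjusted p = 0.0202) and without the filter on low counts (edgeR adjusted p = 0.0320). Cd14, which hands lipopolysaccharide to TLR4, had 66.9, 39.4 and 60.5 CPM in the CS lungs and 55.7, 27.2 and 27.6 in the PS lungs. These groups overlapped, with a log2 fold change of -0.59 (SE 0.31, edgeR adjusted p = 0.227).

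None of the other surface receptors passed the test in the lung. Tlr1 was at 4.95, 3.80 and 4.72 CPM in the CS lungs and 4.44, 10.2 and 5.35 in the PS lungs, where PS replicate 2 stood highest (log2 fold change 0.57, SE 0.34). Its partner Tlr2 was at 13.9, 9.2 and 12.9 CPM in the CS lungs and 16.4, 9.32 and 8.39 in the PS lungs (log2 fold change -0.08, SE 0.29). Tlr6, also a partner of Tlr2, had a log2 fold change of 0.04 (SE 0.43), and Tlr5 one of -0.40 (SE 0.38). Tlr3 ranged over the 6 lungs from 28.0 to 37.3 CPM, with a log2 fold change of 0.07 (SE 0.16).

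Thus 2 of 10 genes were called in the lung, both lower, where 9.22% of all tested genes were called in either direction and 4.43% were called lower. At an unadjusted p of at most 0.05 there were 3, all lower, against 30.1% of all genes in either direction and 14.5% lower. In 3 of the 10 genes PS lay wholly below CS, against 18.8% of all genes. The median log2 fold change of the 10 genes was -0.24, and that of all genes 0.01. No gene stayed called without any 1 of the 3 CS lungs or without PS replicate 2, where the adjusted p of Tlr9 was 0.0993, 0.0840, 0.0805 and 0.0882. The log2 fold changes kept their sign, from -5.51 (without PS replicate 3) to -3.48 (without PS replicate 1) for Tlr9 and from -1.91 to -1.66 for Tlr8. Without PS replicate 1 there were 4 calls, Tlr4 and Cd14 being added, and without PS replicate 3 there were 2. The 9.22% belongs to the fit of all lungs, so these counts have no share of all genes beside them. Tlr8 and Tlr9 were not tested when at least 10 counts in every library were asked for.

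Cell type markers were measured in the same lungs, since TLR9 is known from B cells and plasmacytoid dendritic cells. Of 5 B cell markers, Ms4a1, Cr2 and Cd79b had log2 fold changes of -1.08, -0.88 and -0.82 (edgeR adjusted p = 0.0867, 0.0912 and 0.0950), and the summed B cell markers ranged from 94.9 to 162 CPM on CS and from 74.2 to 103 CPM on PS. Markers of plasmacytoid dendritic cells summed to 18.6 to 20.7 CPM on CS and 10.9 to 38.3 CPM on PS. Most of that sum was Cox6a2, with 14.6 ± 2.05 CPM on CS and 19.7 ± 11.1 CPM on PS (SD, n = 3 each). Which cells gave the Cox6a2 reads was not tested, so the sum may not measure plasmacytoid dendritic cells. The log2 fold changes of Klk1, Ccr9, Siglech and Cox6a2 were -1.11, -0.23, 0.32 and 0.43, and none was called. Summed macrophage markers ranged from 285 to 322 CPM on CS and from 292 to 446 CPM on PS. Of the 8 macrophage markers 6 had positive and 2 negative log2 fold changes, with a median of 0.44. Adgre1 fell by 0.81 on the log2 scale (edgeR adjusted p = 0.0448), while Fcgr1, Mrc1, C1qa and Csf1r stood at 0.70, 0.68, 0.45 and 0.42 and were not called. Neutrophil markers summed to 121 to 373 CPM on CS and 234 to 504 CPM on PS, and of the 6 tested Csf3r rose by 1.06 (edgeR adjusted p = 0.0204). The others were not called, with Mmp9 at -0.67 and Retnlg, S100a8, S100a9 and Cxcr2 at 0.29, 0.46, 0.50 and 0.53. The 5 endothelial markers summed to 2113 to 2401 CPM on CS and 2006 to 2446 CPM on PS. Of these Kdr fell by 0.95 (edgeR adjusted p = 0.0412), while Tek, Pecam1, Cdh5 and Emcn stood at -0.09, -0.07, 0.16 and 0.33 and were not called. Alveolar macrophage markers (5 higher and 2 lower, median 0.07) and monocyte markers (1 higher and 4 lower, median -0.26) were not called. Nor were those of lung epithelium (3 and 2, median 0.04), T cells (5 and 0, median 0.16) and all leukocytes (2 and 2, median 0.07). Adgre1, Csf3r and Kdr were no longer called without any 1 of the 3 CS lungs or without PS replicate 2 (edgeR adjusted p from 0.0766 to 0.140), nor was Adgre1 without PS replicate 3 (0.0567). Limma on log2 FPKM with pseudocounts of 1 and 0.1 did not call Adgre1 (adjusted p = 0.0568 and 0.0559) or Kdr (0.0545 and 0.0545). It did call Csf3r (limma adjusted p = 0.028 and 0.029). Each of these sums overlapped between the diets, and their part in the result was not tested.

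**Figure D2:**
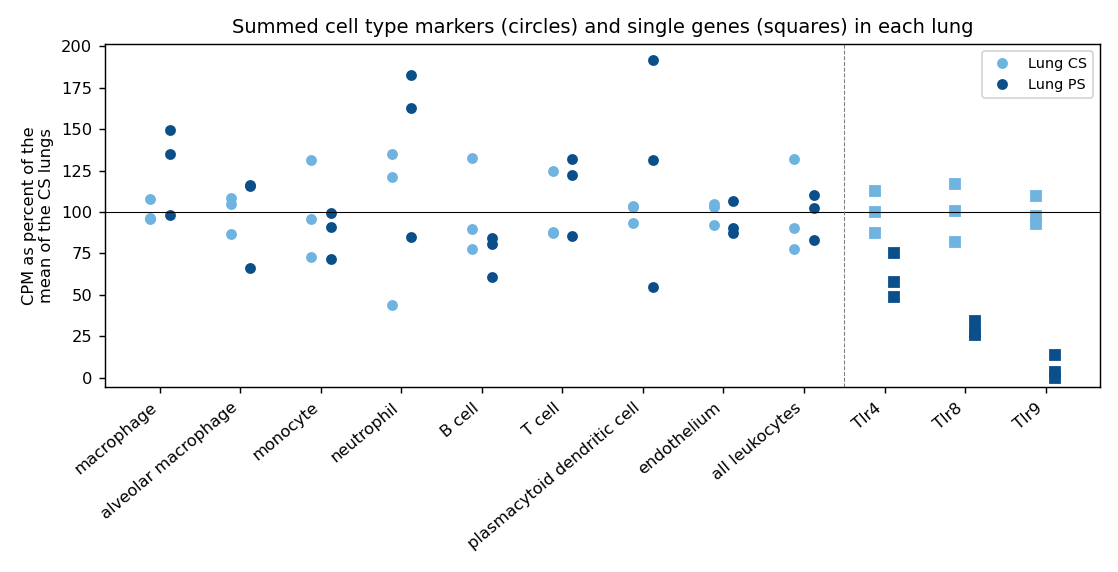
CPM as a percentage of the mean of the CS lungs (vertical axis, linear), for the summed markers of 9 cell types (circles) and for Tlr4, Tlr8 and Tlr9 (squares) in the 3 CS and 3 PS lungs, 1 point per mouse. The diets overlap in each marker sum and not in the 3 receptor genes. Most of the plasmacytoid dendritic cell sum is the single gene Cox6a2.

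In the liver, 0 of the 10 genes were called for the diet by edgeR and 0 by DESeq2's Wald test, and edgeR called 1 of all 13195 tested genes (0.00758%). DESeq2's Wald test called 163 of the 13179 genes with an adjusted p (1.24%). Tlr6, Tlr8 and Tlr9 lay below the filter on low counts, with at most 12, 15 and 2 counts in a liver. The 7 tested genes all had negative log2 fold changes, with a median of -0.43 against -0.03 over all genes. The diets overlapped in each of the 10 genes, and did not overlap in 3.63% of all genes. At an unadjusted p of at most 0.05 there was 1 gene, Cd14, against 7.55% of all genes.

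Cd14 had 5.52, 9.50, 3.71 and 4.87 CPM in the CS livers and 3.71, 3.07, 2.62, 3.03 and 5.24 CPM in the PS livers. The groups overlapped, and the log2 fold change of -0.74 (SE 0.32) had an adjusted p of 0.636 by edgeR. Without CS replicate 2 it was -0.42. Tlr1 had 19, 55, 7 and 11 counts in the CS livers and 2, 6, 14, 12 and 19 in the PS livers. Its log2 fold change of -1.15 (SE 0.70) was -0.14 without CS replicate 2, the liver with 55 counts.

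Tlr2 had a log2 fold change of -0.53 (SE 0.40), Tlr7 of -0.32 (SE 0.43), Tlr5 of -0.15 (SE 0.40) and Tlr3 of -0.05 (SE 0.27) in the liver. Tlr4, the receptor for lipopolysaccharide, had 19, 5, 22 and 10 counts on CS and 7, 18, 0, 7 and 17 on PS, with a log2 fold change of -0.43 (SE 0.75). Tlr9 had 1, 0, 2 and 2 counts in the CS livers and 1 count in 1 of the 5 PS livers, too few to compare the diets at this depth. Tlr8 had from 0 to 15 counts on CS and from 0 to 11 on PS.

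**Figure D3:**
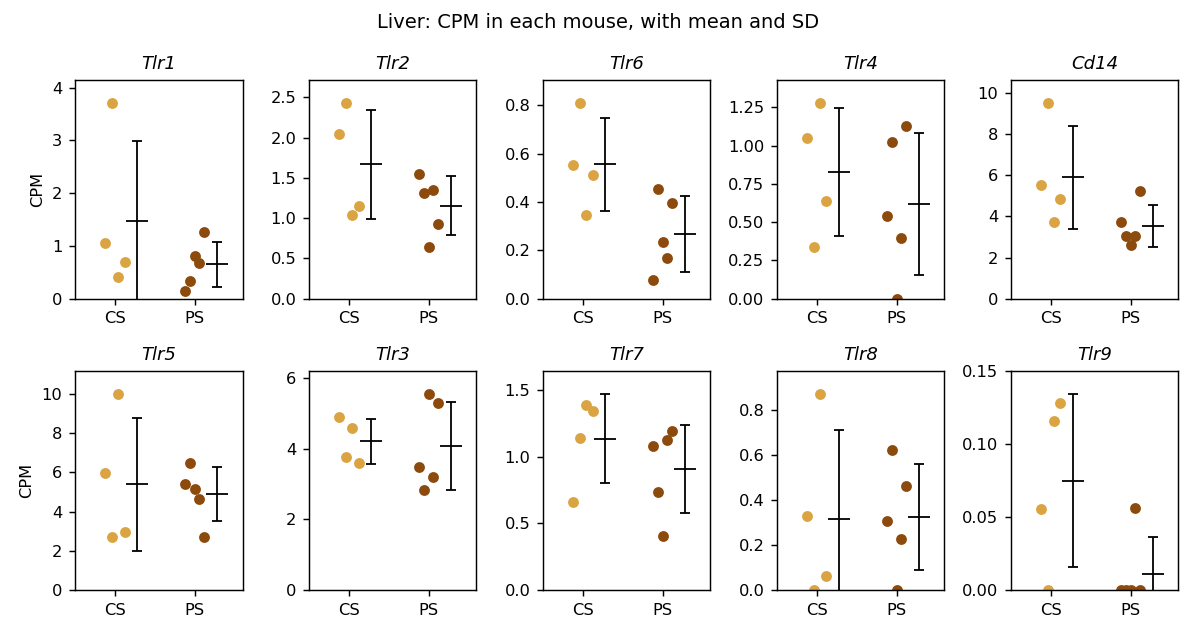
CPM of each gene (vertical axis, starting at 0, own scale in each panel) in the 4 CS and 5 PS livers, 1 point per mouse, with the mean and SD (drawn down to 0 at most) beside the points. The diets overlap in all 10 genes, and the CS point of Tlr1 at 3.71 CPM is replicate 2.

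Cell type markers were measured in the same livers. All 8 macrophage markers and all 5 Kupffer cell markers had negative log2 fold changes, with medians of -0.61 and -0.78, and none was called by edgeR. The Kupffer cell markers summed to 159 to 226 CPM on CS and 51.0 to 179 CPM on PS. The log2 fold changes were also negative for 4 of 4 markers of all leukocytes (median -0.77), 4 of 4 tested of alveolar macrophages (median -0.69), 5 of 5 of endothelium (median -0.56) and 5 of 5 of T cells (median -0.29), with none called. They were positive for 3 of 3 tested neutrophil markers (median 0.0713), 2 of 3 monocyte markers (median 0.22) and 4 of 5 hepatocyte markers (median 0.19), with none called. The lists of Kupffer cells and alveolar macrophages share Marco (log2 fold change -1.35), which is counted in both. The leukocyte markers summed to 29.7 to 60.0 CPM on CS and 15.5 to 32.5 CPM on PS. The part of these markers in the differences above was not tested.

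**Figure D4:**
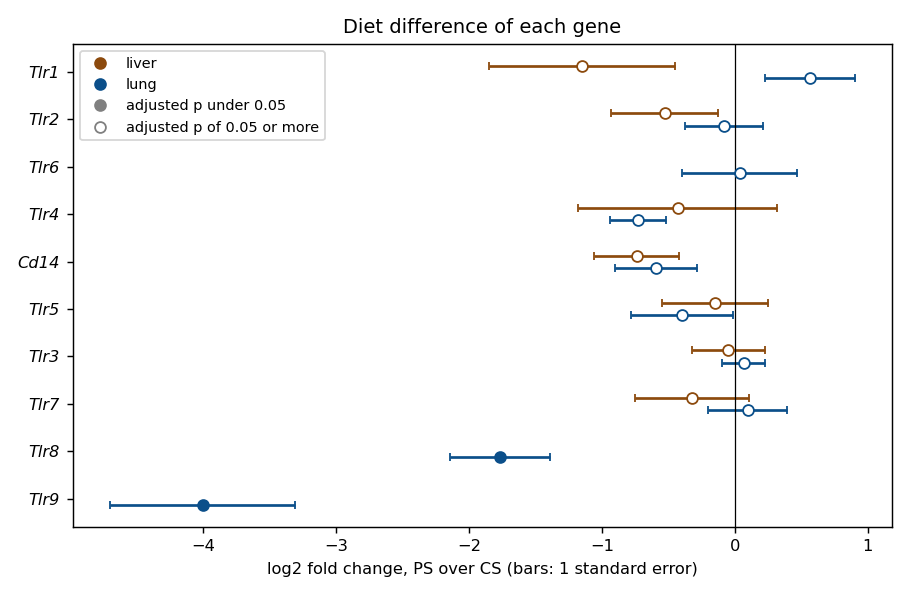
Log2 fold change of PS over CS (horizontal axis) with 1 standard error for each gene in liver and lung, filled where the edgeR adjusted p is under 0.05. Filled points are Tlr8 and Tlr9 in the lung, and Tlr6, Tlr8 and Tlr9 have no liver point because they were below the filter.

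The 2 diet differences were compared in 1 model of all 15 libraries, where the difference in lung minus that in liver was called in 0 genes of the 10 by edgeR and by DESeq2, against 0.0226% of all genes. At an unadjusted p of at most 0.05 there were 0 of the 10 and 10.9% of all genes. For Tlr9 it was -1.73 (SE 2.20) and for Tlr8 -1.80 (SE 1.22), with 6 counts of Tlr9 in all 9 livers. For Tlr1 it was 1.65 (SE 0.90, edgeR adjusted p = 0.510). The calls of Tlr8 and Tlr9 in the lung are therefore not shown to be particular to it.

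Lung and liver differed in the level of most of the genes. On a scale set over all 15 libraries, 8 genes were higher in the lung and 1, Tlr5, was lower, where 76.7% of all genes were called, 42.3% higher and 34.4% lower. The median log2 difference was 1.32 over the 10 genes and 0.17 over all genes. Of the genes higher in the lung Tlr4 differed most, with 9.40 ± 3.01 CPM in lung (SD, n = 6) and 1.05 ± 0.64 CPM in liver (SD, n = 9), a log2 difference of 3.10 (SE 0.41, edgeR adjusted p = 2.54e-06). Cd14 had a log2 difference of 1.93 (SE 0.23) and Tlr2 of 1.70 (SE 0.26), and both were higher in the lung of 6 of 6 mice with both tissues.

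The endosomal Tlr3 was at 17.6 ± 2.07 CPM in lung and 6.07 ± 1.43 CPM in liver (SD, n = 6 and 9), a log2 difference of 1.53 (SE 0.17). Tlr7 differed by 0.97 (SE 0.28). Tlr9 had 98 counts over 6 lungs and 6 counts over 9 livers, and its log2 difference of 2.11 (SE 0.76) was 1.43 without the lung of PS replicate 3, where it was no longer called (edgeR adjusted p = 0.241). Tlr8 was not called (0.30, SE 0.61). Tlr5 was at 1.91 ± 0.60 CPM in lung and 7.51 ± 3.42 CPM in liver, a log2 difference of -2.0 (SE 0.33, edgeR adjusted p = 3.36e-05), and lower in the lung of 6 of 6 mice.

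Some of these calls turned on the scale. Scaled to total counts, the median over all genes moved from 0.17 to 1.55. On that scale Tlr5 was not called (-0.62, edgeR adjusted p = 0.0962) and Tlr8 was called higher (1.66, edgeR adjusted p = 0.0171), with 9 genes called in all. With the mouse as a block, over the 12 libraries of 6 mice, 6 genes were called, and Tlr1, Tlr6 and Tlr9 were not (edgeR adjusted p = 0.0566, 0.0813 and 0.0529). The same 12 libraries without the block gave 8. The 76.7% of all genes called belongs to the main fit, and the shares in these other fits are not given here. Tlr1 also lost its call without any 1 of 6 single libraries, at an adjusted p up to 0.0995 (edgeR), and Tlr6 without the lung of CS replicate 1 or PS replicate 2 (edgeR adjusted p = 0.0694 and 0.0501).

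Within the CS diet 6 genes were called between the tissues (67.1% of all genes), and within the PS diet 8 (68.7%). Tlr2, Tlr3, Tlr4, Cd14 and Tlr5 were called on both, Tlr9 on CS, and Tlr1, Tlr6 and Tlr7 on PS. With the mouse as a block, Tlr6 and Tlr7 lost their call on PS (edgeR adjusted p = 0.0723 and 0.0807). Without the lung of PS replicate 2, Tlr1 and Tlr6 lost theirs on PS (edgeR adjusted p = 0.0703 and 0.0691), and without that of PS replicate 1, Tlr7 did (0.0660). DESeq2's Wald test called Tlr7 on CS as well (adjusted p = 0.0263), and edgeR called Tlr8 on CS without the liver of CS replicate 3 (adjusted p = 0.0317). Scaled to total counts, Tlr5 lost its call on both diets (edgeR adjusted p = 0.352 on CS and 0.158 on PS), while Tlr1, Tlr6, Tlr7 and Tlr8 were called on CS. The log2 difference of Tlr1 was 0.29 (SE 0.63) on CS and 1.93 (SE 0.61) on PS, and that of Tlr9 was 2.97 (SE 0.79) on CS and 1.24 (SE 1.23) on PS. The tests of these changes with diet are those of the model above, in which none passed.

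**Figure D5:**
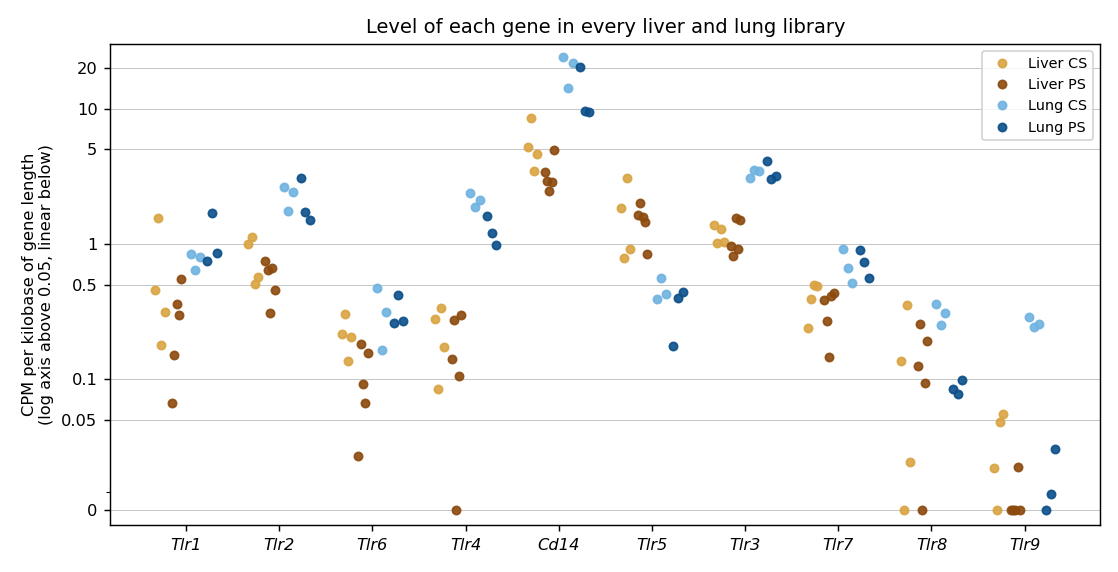
CPM per kilobase of gene length on the scale of all 15 libraries (vertical axis, logarithmic above 0.05 and linear below) for each gene in every liver and lung library of both diets. Tlr5 is the gene with all 6 lungs below all 9 livers, and Cd14 is the highest in both tissues.

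By FPKM, which divides by gene length, the order of the genes differed between the tissues. In the liver the median FPKM was highest for Cd14 at 2.42, then Tlr5 at 1.07, Tlr3 at 0.727, Tlr2 at 0.442, Tlr7 at 0.282, Tlr1 at 0.215, Tlr4 at 0.118, Tlr6 at 0.108, Tlr8 at 0.0872 and Tlr9 at 0. Cd14 lay above Tlr5 in 9 of 9 livers and Tlr2 above Tlr7 in 9, while Tlr5 lay above Tlr3 in 6 and Tlr4 above Tlr6 in 6, so that these neighbors did not separate. In the lung it was highest for Cd14 at 30.5, then Tlr3 at 5.95, Tlr2 at 3.70, Tlr4 at 3.06, Tlr1 at 1.45, Tlr7 at 1.25, Tlr5 at 0.739, Tlr6 at 0.525, Tlr8 at 0.314 and Tlr9 at 0.247. Cd14 lay above Tlr3 and Tlr3 above Tlr2 in 6 of 6 lungs, while Tlr1 lay above Tlr7 in 3 of 6. Tlr4 stood in place 7 in the liver and in place 4 in the lung. The medians pool both diets, which in the lung did not overlap for Tlr4, Tlr8 and Tlr9. Lung Tlr8 was at 0.446 to 0.639 FPKM on CS and 0.142 to 0.183 on PS. Lung Tlr9 was at 0.430 to 0.512 FPKM on CS and 0 to 0.0628 on PS. The liver and lung FPKM tables were scaled separately, so only orders are compared here.

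Other genes of the pathway were counted in a list of 52. In the lung 49 were tested, and 2 were called by edgeR, against 9.22% of all genes. Irf3, a transcription factor of the interferon response, rose, from 55.7 to 73.0 CPM on CS to 92.4 to 118 CPM on PS (log2 fold change 0.73, SE 0.16, edgeR adjusted p = 0.0353). Ikbkg, the regulatory subunit of the IKK complex, fell, from 61.7 to 71.0 CPM to 31.6 to 45.6 CPM (log2 fold change -0.73, SE 0.17, edgeR adjusted p = 0.0378). Neither stayed called without any 1 of the 3 CS lungs or without PS replicate 2, where the edgeR adjusted p was 0.0890 to 0.129 for Irf3 and 0.107 to 0.130 for Ikbkg, with log2 fold changes of 0.60 to 0.84 and -0.80 to -0.59. Ikbkg was also not called by limma on log2 FPKM (adjusted p = 0.0525 and 0.0524 with pseudocounts of 1 and 0.1). Irf3 shares 88 exon bases with Bcl2l12 and Ikbkg 418 with G6pdx, both on the other strand. At an unadjusted p of at most 0.05 there were 6 genes higher and 6 lower, against 15.6% and 14.5% of all genes. The log2 fold changes were 0.62 for the kinase Ikbke and 0.55 for the interferon regulator Irf7. They were -1.02 for Tnfaip3, which limits NF-kappa B signals, -0.81 for Cd180, a B cell relative of TLR4, and -0.73 for Cd36, a fatty acid and lipoprotein receptor.

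In the liver 41 of the 52 were tested and none was called by edgeR, while DESeq2's Wald test called 1, Sigirr, higher (log2 fold change 0.63, adjusted p = 0.0371), against 0.835% of all genes called higher by that test. At an unadjusted p of at most 0.05 there were 2 higher and 4 lower, against 3.96% and 3.58% of all genes. Il1b, the cytokine gene, had 1.92 to 5.32 CPM on CS and 0.309 to 2.79 CPM on PS (log2 fold change -1.74, SE 0.54). Tlr12, an endosomal receptor of mice, stood at 26.0 ± 19.2 CPM on CS (SD, n = 4) and at 10.1 ± 4.56 CPM on PS (SD, n = 5). Its log2 fold change was -1.36 (SE 0.48). The kinase Irak2 stood at -0.40, and the inhibitor Sigirr and the ligase Peli1 at 0.63 and 0.42. Between lung and liver 17 of 50 tested were higher and 16 lower, against 42.3% and 34.4% of all genes. Ptgs2, the gene of cyclooxygenase-2, had 144 to 616 counts in a lung and 0 to 12 in a liver. The other genes highest in lung were Tnfaip3 (log2 difference 2.26) and Il12b, with 7 to 29 counts in a lung and 0 to 5 in a liver. Those lowest were Cxcl1 (-4.22), Tlr12 (-4.12) and Lbp (-2.94), the binding protein for lipopolysaccharide that hepatocytes secrete.

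The genes whose levels were most like each of 7 of the receptor genes were found over 9319 genes and 15 libraries, after centering each tissue, by Pearson's r, as a description. They were Dab2 for Tlr1 (0.89), Prcp for Tlr2 (0.84), Bysl for Tlr4 (0.82), Cd300a for Cd14 (0.86), 4930402H24Rik for Tlr5 (0.91), Zc3h10 for Tlr3 (0.75) and Nostrin for Tlr7 (0.78). Libraries share their mouse across tissues and their scaling.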

How the data were processed

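Per the labels and the study's methods, the authors aligned the cleaned reads to mm10 with HISAT2 2.0.5, counted reads per gene with featureCounts 1.5.0-p3 and tested the diets with DESeq2 1.20.0. They deposited read counts and FPKM values, which are the counts divided by gene length and by 1 factor per library. The gene annotation used for counting is not given in the sources used here.

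From the counts, the diets were compared within each tissue, and the tissues in 1 model of 15 libraries, with edgeR 4.0.16 (robust quasi-likelihood test, TMM scaling, its default filter on low counts, R 4.3.3) and Benjamini-Hochberg adjustment over all genes tested, at 0.05. CPM were scaled by TMM within a tissue, and over all libraries for the tissue comparison. Each library comes from its own mouse and tissue by the labels. Mouse is a true pairing between tissues (same animal by label, with deviations that correlated from -0.07 to 0.15). Replicate numbers mark no shared litter or day in the labels.

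Alternatives were leaving out each library, blocks for replicate number or mouse, DESeq2 1.42.0 and its size factors, scaling to total counts, the filter dropped or raised to 10 counts in each library, and limma 3.58.1 on log2 FPKM with pseudocounts of 1 and 0.1. FPKM were used for orders and those fits only. The fits were tested on simulated data.

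The genes and lists were chosen with earlier results of these data known. Named were all 10 genes. Of the pathway list, genes called for the diet and the 3 highest and 3 lowest log2 fold changes at an unadjusted p of at most 0.05 (adjusted p for the tissues) were named, and the likeness used genes with a mean of at least 50 counts in each tissue. Shorter forms of 2 promoter motifs were tried after the matches were seen and are not reported.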

Additional observations from a re-analysis of the deposited data

Results flagged for a closer look

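Among 20 groups of 4 or 5 libraries, 1 held a library far from the others. It is the Tlr9 level of PS replicate 4 in the liver, with 0.0562 CPM, which is 1 count, against 0 in the other 4 PS livers, and its gap to the next library was 1.0 times the range of the group. With 1 count against 4 libraries at 0, the gap equals the range by construction.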

How the results depend on the processing

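The calls of Tlr8 and Tlr9 in the lung held in each alternative that tested them with all 6 lungs. Requiring at least 10 counts in every library left 0 of the 10 genes called in the lung and 1 at an unadjusted p of at most 0.05, and 4 called between the tissues, also 4 within the PS diet. This filter left Tlr8 and Tlr9 untested in the lung, and only Tlr2, Tlr3, Tlr5 and Cd14 tested between the tissues. Pathway genes called numbered 5 in the lung with DESeq2's Wald test and 5 without a filter, 1 with log2(FPKM + 1) and 1 with log2(FPKM + 0.1), and 1 in the liver with DESeq2's Wald test. Except for the last, where 1.24% of all genes were called, the shares of all genes in these fits are not given here. With the replicate block 3 liver pathway genes stood at an unadjusted p of at most 0.05. Replicate numbers did not pair the samples (r from -0.41 to -0.02 in the liver, 0.05, -0.005 and 0.09 in the lung), and with the replicate block 2 genes stayed called in the lung and 0 in the liver, where Tlr5 stood at 0.20.

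Signs that reversed were of values not called. In the comparison within the PS diet Tlr8 stood at 0.77 with total counts and 0.21 with the mouse block. In the difference between tissues Tlr4 stood at 0.20 with the mouse block, and over the same 12 libraries without it Tlr4 stood at 0.0453, Tlr5 at 0.17, Tlr3 at -0.001 and Tlr9 at 0.0053. This last fit was chosen after seeing the data.

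Leaving out 1 library at a time, genes called in the lung ranged from 0 to 4, those at an unadjusted p from 3 to 5, and pathway genes called from 0 to 4 and at an unadjusted p from 6 to 12. The shares of all genes in the fits with 1 library left out are not given here. In the liver the genes at an unadjusted p ranged from 0 to 1, Tlr5 from -0.37 to 0.33 and Tlr3 from -0.19 to 0.0525. In the lung Tlr2 ranged from -0.45 to 0.10, Tlr6 from -0.29 to 0.41, Tlr3 from -0.065 to 0.16 and Tlr7 from -0.0696 to 0.32. Between tissues Tlr1 ranged from -0.0263 to 1.25 on CS and Tlr9 from -0.12 to 3.23 on PS. In the difference between tissues the genes at an unadjusted p ranged from 0 to 2, Tlr4 from -0.65 to 0.0027, Cd14 from -0.35 to 0.29, Tlr5 from -0.78 to 0.0073, Tlr3 from -0.0725 to 0.21 and Tlr9 from -3.10 to 0.26. The cause of these changes was not tested.

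With 3 lungs a diet and at most 45 counts of Tlr8 or Tlr9 in a lung, counting error is large for both. Liver Tlr4 could not be tested without PS replicate 2, and the liver fit with at least 10 counts in every library left out Tlr1, Tlr4 and Tlr7.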
